A study of Mus musculus with 18 samples.

Results

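Transcripts of 7 voltage-gated sodium channel genes were followed in mouse hearts after a single dose of ionizing radiation. The genes were the pore-forming alpha subunit genes Scn4a, Scn7a and Scn10a, the beta subunit genes Scn2b, Scn3b and Scn4b, and Fgf13, which encodes an intracellular channel-binding factor. They were chosen by symbol, are 7 of the 30072 genes in the count table, and all 7 passed the filter on low counts. Every mouse was an adult of the CD-1 strain aged at least 8 weeks. Per the methods of the study its experiments used both sexes, without a count of males and females in each group. Control mice (n = 6) were sham-treated under isoflurane, which per the methods of the study included the CT scan used for targeting, and did not receive the therapeutic dose. The other groups received 25 Gy under the same anaesthesia after such a scan and were sampled at 2 weeks post-IR (n = 6) or 6 weeks post-IR (n = 6). The labels name the tissue as septum between the ventricles and the radiation as gamma, whereas the methods of the study describe ventricular tissue and X-rays aimed at the heart. The sex of each mouse is not given, and the control mice carry no sampling time in the labels.

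Voltage-gated sodium channels open on depolarisation, carry the inward sodium current that starts the action potential of working myocardium, and then close within milliseconds through an inactivation gate. The alpha subunit forms the pore. Beta subunits are single-pass membrane proteins with an extracellular immunoglobulin fold that alter channel gating and surface delivery, and fibroblast growth factor homologous factors such as the product of Fgf13 bind the intracellular tail of the alpha subunit and shift its inactivation.

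The gate of a typical alpha subunit is a short intracellular loop whose isoleucine, phenylalanine and methionine residues bring about the closure of the pore. The coding stretches over these 3 codons are shown because they separate the atypical Scn7a from the other 2 alpha subunit genes, with the 9 bases of the codons, or those aligned to them, in capitals.
Scn4a: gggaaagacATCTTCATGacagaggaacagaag
Scn10a: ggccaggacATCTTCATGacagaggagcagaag
Scn7a: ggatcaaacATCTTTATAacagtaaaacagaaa
The 33-base stretches come from GENCODE M21 transcripts on GRCm38 and lie on the minus strand, Scn4a at chr11:106322854-106322886 in exon 22 of 24, Scn10a at chr9:119616766-119616798 in exon 26 of 28, and Scn7a at chr2:66680930-66680962 in exon 23 of 25. With positions counted from 1 at the 5′ end and Scn4a as the reference, Scn10a differed at 4 positions outside the capitals. Scn7a differed at 8 positions outside the capitals and at 2 within them, C15T and G18A.

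The beta subunit products differ in how they hold the alpha subunit. Those of Scn2b and Scn4b are joined to it by a disulfide bond, and that of Scn3b associates without one. The stretches below start at the codon 2 before the first cysteine codon of the immunoglobulin fold, and the capitals mark the codon that lies 5 codons after that cysteine codon, which in Scn2b and Scn4b is the linking cysteine.
Scn2b: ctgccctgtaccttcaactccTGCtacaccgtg
Scn4b: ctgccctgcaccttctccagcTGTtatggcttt
Scn3b: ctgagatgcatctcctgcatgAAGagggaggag
Scn2b and Scn4b are neighbours on the plus strand of chromosome 9, with 8324 bases between them, and their stretches lie in exon 2 of 5 at chr9:45125013-45125045 and chr9:45146762-45146794. The Scn3b stretch lies on the same chromosome and strand in exon 3 of 7 at chr9:40277139-40277171. Against Scn2b, Scn4b differed within the capitals at C24T, and Scn3b at T22A, G23A and C24G.

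Total estimated counts were 11522987 to 15501019 per mouse. The TMM scaling factor, which balances libraries of different composition, rose from 0.844 to 0.991 in control mice to 1.04 to 1.13 at 6 weeks post-IR (exact permutation test, two-sided, P = 0.00216, the smallest that 6 against 6 allows, adjusted P over 9 tests = 0.00974). The median share of counts in mitochondrially encoded genes was 23.2% in control, 20.2% at 2 weeks and 17.4% at 6 weeks post-IR (6 weeks against control, exact permutation test, adjusted P = 0.00974). Scaled by library size alone, the median gene was 0.24 log2 units higher at 6 weeks than in control.

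The 7 transcripts covered a wide range of levels on the length-corrected TPM scale (transcript abundance corrected for length and depth). Fgf13 was the most abundant, with 58.3 ± 9.22 TPM (SD, n = 18) over all mice, above 92.9% of the 15054 genes tested. Scn4b followed with 19.4 ± 5.04 TPM, then Scn4a with 10.3 ± 3.63 TPM and Scn7a with 7.90 ± 1.80 TPM. Scn3b had 2.16 ± 1.69 TPM, Scn10a 0.389 ± 0.140 TPM and Scn2b 0.239 ± 0.101 TPM, the last above only 5.32% of tested genes. Neighbours in this order were separated in 17 or 18 of 18 mice, with 2 exceptions. Scn4a exceeded Scn7a in 12 of 18 mice (5 of 6 control, 3 of 6 at 2 weeks, 4 of 6 at 6 weeks), so these neighbours did not differ beyond their spread. Scn10a exceeded Scn2b in 5 of 6 control mice and 6 of 6 at 2 weeks, but in 3 of 6 at 6 weeks post-IR. Scn2b rested on 6 to 20 counts per mouse and Scn10a on 12 to 55, against 750 to 2075 for Scn4b.

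**Figure D1:**
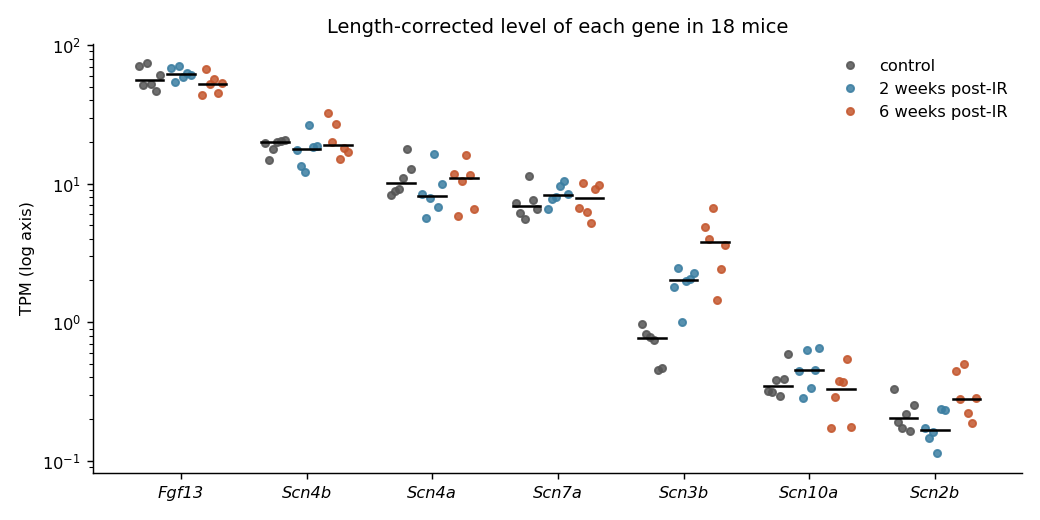
Level of each gene in TPM (log axis) for 18 mice, 1 point per mouse, coloured by group, with a black line at the group median. Genes are ordered by mean level from Fgf13 (58.3 TPM) to Scn2b (0.239 TPM). The points of Scn3b spread furthest, from 0.454 to 6.71 TPM.

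Radiation was followed by higher Scn3b. Scn3b (ENSMUSG00000049281, chr9:40269217-40291618, plus strand) encodes a beta subunit that modulates inactivation and is associated with inherited arrhythmia in people. Its normalised level was 1.74, 2.34 and 3.25 CPM (counts scaled to library size with TMM factors) in the lowest, median and highest control mouse. At 2 weeks post-IR these values were 2.92, 5.60 and 8.34 CPM, and at 6 weeks post-IR 4.67, 9.58 and 13.8 CPM. At 2 weeks 5 of 6 mice lay above the highest control mouse, and at 6 weeks all 6 did. Of all tested genes, 1.96% had irradiated mice entirely above the control range at 2 weeks and 5.8% at 6 weeks.

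The fold change of Scn3b was 2.35 at 2 weeks post-IR (log2 fold change 1.23, SE 0.278, 95% confidence interval 0.65 to 1.82, edgeR adjusted P = 0.0166). It was the only one of the 7 genes called in that comparison, in which 5.02% of all tested genes were called, 3.09% higher and 1.93% lower. At 6 weeks post-IR the fold change was 3.78 (log2 1.92, SE 0.268, interval 1.36 to 2.48, edgeR adjusted P = 5.48e-05). Among all tested genes 1.46% had a larger log2 fold change at 6 weeks. The 2-week call did not hold with limma voom (log2 1.18, adjusted P = 0.0542) or with limma voom and sample quality weights (log2 1.20, adjusted P = 0.0512). Both comparisons share the same 6 control mice.

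**Figure D2:**
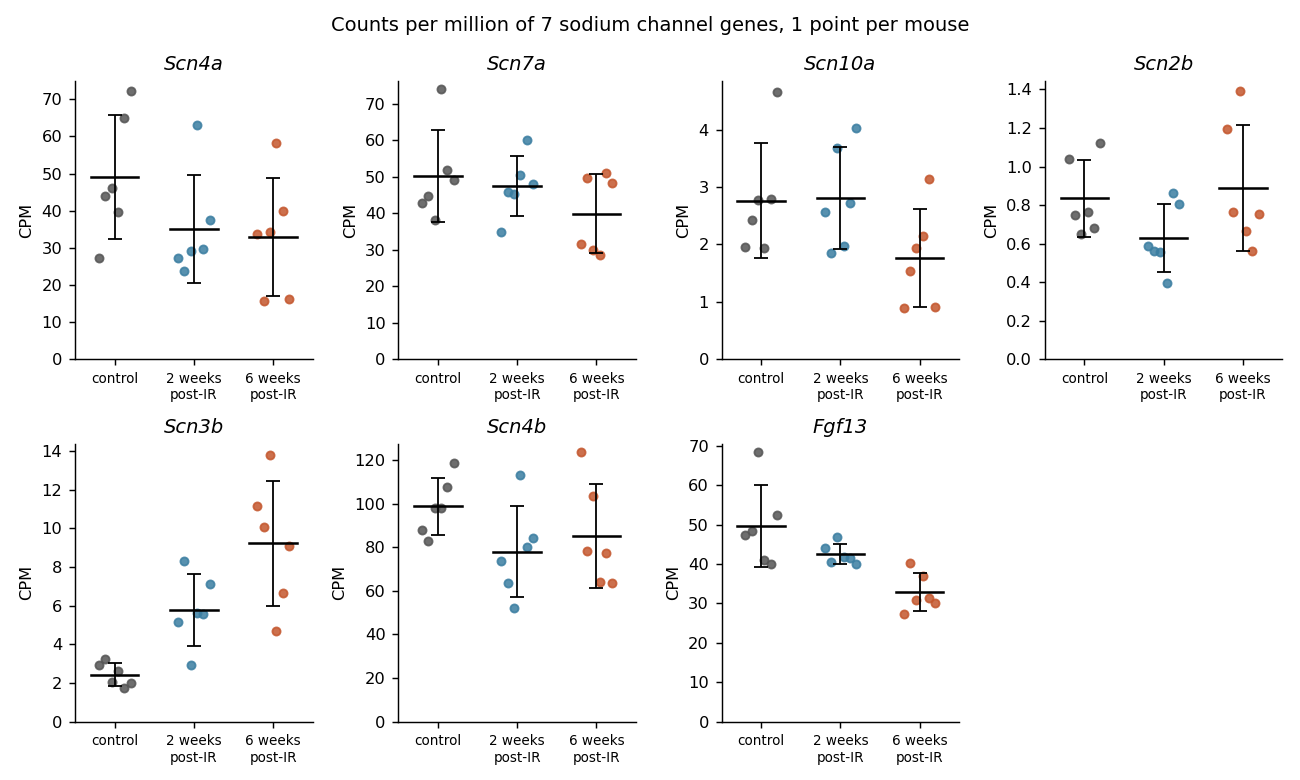
TMM-normalised CPM of each gene, 1 point per mouse and 6 mice per group, with a line at the group mean and bars of 1 SD. For Scn3b all 6 mice at 6 weeks post-IR (4.67 to 13.8 CPM) lie above the control mice (1.74 to 3.25 CPM), and Fgf13 falls from a mean of 49.6 to 32.9 CPM.

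The other beta subunit genes did not pass the test. Scn4b (ENSMUSG00000046480, chr9:45138395-45154152), the most abundant beta subunit transcript of the 3, ranged from 82.8 to 118.5 CPM in control (median 98.0), 52.2 to 113.3 CPM at 2 weeks (median 76.8) and 63.4 to 123.8 CPM at 6 weeks post-IR (median 77.9). At both times 4 of 6 irradiated mice lay below the lowest control mouse, while the highest reached 113.3 CPM at 2 weeks, within the control range, and 123.8 CPM at 6 weeks, above it. For Scn4b the log2 fold change was -0.34 at 2 weeks (edgeR adjusted P = 0.284, SE 0.176) and -0.21 at 6 weeks (interval -0.58 to 0.15, adjusted P = 0.413), and the 6-week difference turned positive under scaling by library size, on the TPM scale and against cardiomyocyte markers, at 0.061 to 0.25.

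Scn2b (ENSMUSG00000070304, chr9:45117782-45130070) had lowest, median and highest values of 0.648, 0.757 and 1.12 CPM in control and 0.392, 0.574 and 0.862 CPM at 2 weeks post-IR. At 6 weeks they were 0.563, 0.758 and 1.39 CPM. All 3 groups overlapped, with a log2 fold change of -0.41 at 2 weeks (interval -0.98 to 0.15, edgeR adjusted P = 0.413) and 0.097 at 6 weeks (interval -0.43 to 0.63, adjusted P = 0.825).

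The composition of the beta subunit transcripts shifted with these levels. Within a mouse, the share of Scn3b in the summed TPM of Scn2b, Scn3b and Scn4b does not depend on how libraries are scaled to each other. This share had a median of 3.85% in control (2.15 to 5.19), 9.61% at 2 weeks (6.91 to 15.4) and 14.7% at 6 weeks post-IR (8.65 to 19.6). All 6 mice at each time lay above every control mouse. This separation was not tested or set beside that of other genes. It rests on the same Scn3b transcripts as the CPM values, in which 5 of 6 mice at 2 weeks lay above the highest control mouse. It is therefore not separate support. Scn4b held 95.2% of the sum in the median control mouse and 84.1% at 6 weeks, and Scn2b stayed between 0.396% and 1.57% in all 18 mice. The summed TPM of the 3 genes overlapped between groups, with 15.8 to 21.4 in control and 16.7 to 37.9 at 6 weeks post-IR.

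**Figure D3:**
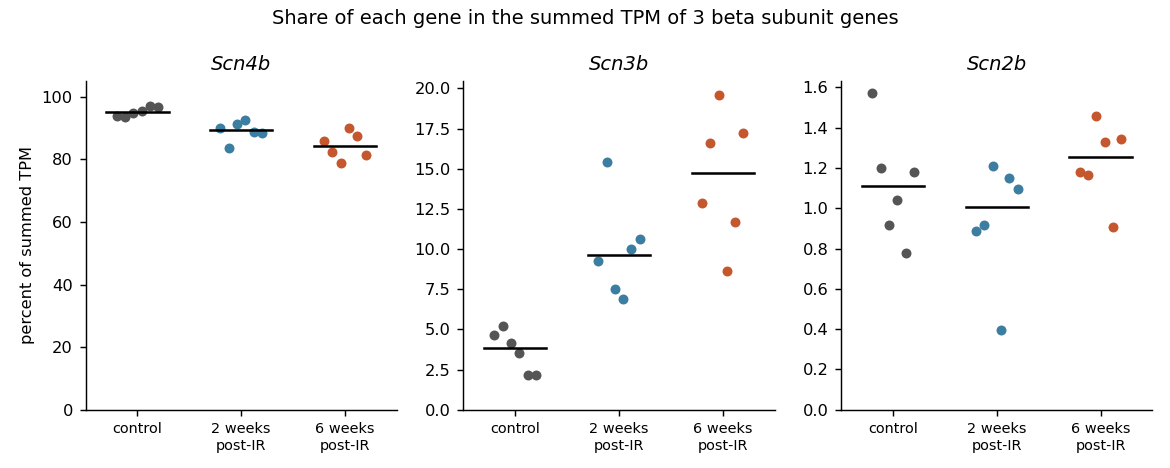
Percent of the summed TPM of 3 beta subunit genes held by Scn4b, Scn3b and Scn2b (1 panel each, own axis from 0), 1 point per mouse, line at the group median. The median share of Scn3b is 3.85% in control, 9.61% at 2 weeks and 14.7% at 6 weeks post-IR.

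Fgf13, on the minus strand of chromosome X (ENSMUSG00000031137, chrX:59062145-59568071), fell at 6 weeks post-IR. Its lowest, median and highest values were 39.9, 47.9 and 68.5 CPM in control and 40.1, 41.7 and 46.9 CPM at 2 weeks. At 6 weeks they were 27.4, 31.2 and 40.3 CPM, with 5 of 6 mice below the lowest control mouse and the remaining mouse just above it. The difference from control was -0.22 log2 units at 2 weeks (interval -0.46 to 0.020, edgeR adjusted P = 0.291), short of the threshold and turned to 0.098 on the log2(TPM + 1) scale, and -0.59 at 6 weeks (SE 0.116, interval -0.83 to -0.35, adjusted P = 0.00103). With Scn3b, Fgf13 made 2 of 7 genes called at 6 weeks, in a comparison that called 25% of all tested genes, 13.5% higher and 11.5% lower.

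The fall of Fgf13 came together with lower cardiomyocyte transcripts. All 10 cardiomyocyte markers were called lower at 6 weeks post-IR, with log2 fold changes of -0.61 to -0.38 and a median of -0.45. Myl2, the ventricular myosin light chain gene, had -0.41 (SE 0.125, edgeR adjusted P = 0.0213), and Mb, the myoglobin gene, -0.44 (SE 0.141, adjusted P = 0.0293). Their summed level had a median of 67610 CPM in control (52173 to 78164), 57156 CPM at 2 weeks and 47922 CPM at 6 weeks (44864 to 56644). Scaled to these markers, the log2 fold change of Fgf13 at 6 weeks was -0.13 (edgeR adjusted P = 0.326), and on the log2(TPM + 1) scale it was -0.15 (limma adjusted P = 0.287). Scn3b kept its call on those scales, with 2.37 relative to the markers. Both scales also raised the median log2 fold change of all tested genes, to 0.42 with the markers and 0.29 on log2(TPM + 1). An upward shift works against a fall and for a rise in any gene, so these values do not set Fgf13 apart from Scn3b. In bulk tissue, fewer cells of a type and less RNA per cell cannot be told apart.

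None of the 3 alpha subunit genes was called in any comparison by edgeR, and at an unadjusted P under 0.05 only Scn10a differed, at 6 weeks against control and against 2 weeks. Scn4a (ENSMUSG00000001027, chr11:106318592-106353288, minus strand), the alpha subunit of skeletal muscle, had lowest, median and highest values of 27.3, 45.1 and 72.1 CPM in control, 23.8, 29.4 and 63.2 CPM at 2 weeks, and 15.8, 33.9 and 58.1 CPM at 6 weeks post-IR. In 5 of 6 irradiated mice at each time the level was below the control median. The spread within groups was wide, with a log2 fold change of -0.48 at 2 weeks (edgeR adjusted P = 0.404, SE 0.307) and -0.57 at 6 weeks (interval -1.22 to 0.073, adjusted P = 0.193). Skeletal muscle markers were close to absent: the 11 listed genes summed to 1.04 to 2.87 CPM over the 18 mice, and the fast myosin genes Myh2 and Myh4 were at 0 in every control mouse. The most abundant by TPM, Tnni2 and Tnnt3, had log2 fold changes at 6 weeks of 0.063 (adjusted P = 0.922) and -0.41 (adjusted P = 0.681).

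Scn7a (ENSMUSG00000034810, chr2:66673425-66784914, minus strand) encodes the atypical family member that responds to extracellular sodium rather than to voltage. Its lowest, median and highest values were 38.1, 47.0 and 73.9 CPM in control, 34.9, 46.9 and 59.9 CPM at 2 weeks, and 28.6, 39.9 and 50.9 CPM at 6 weeks post-IR. At 6 weeks 3 of 6 mice lay below the lowest control mouse, and the other 3 were above the control median. The log2 fold change was -0.080 at 2 weeks (adjusted P = 0.848) and -0.33 at 6 weeks (interval -0.71 to 0.037, edgeR adjusted P = 0.187). Its sign turned on the TPM scale and against cardiomyocyte markers at both times, to values of 0.073 to 0.21, and at 2 weeks also under scaling by library size.

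Scn10a (ENSMUSG00000034533, chr9:119608456-119719322, minus strand) encodes a tetrodotoxin-resistant channel best known from sensory neurons and also studied in cardiac neurons. Its lowest, median and highest values were 1.94, 2.60 and 4.66 CPM in control, 1.84, 2.64 and 4.03 CPM at 2 weeks, and 0.895, 1.73 and 3.14 CPM at 6 weeks post-IR. At 6 weeks 4 of 6 mice were below the lowest control mouse. The log2 fold change was 0.046 at 2 weeks (adjusted P = 0.951) and -0.65 at 6 weeks (SE 0.307, interval -1.30 to -0.012, edgeR adjusted P = 0.131). Without replicate 5 of the 6-week group it was -0.89 and passed the test (adjusted P = 0.041). Autonomic neuron markers were low, with a sum over 10 genes of 8.53 to 12.8 CPM in control and 7.82 to 12.8 CPM at 6 weeks, and the acetylcholine enzyme gene Chat at 0 in both groups. Of 6 tested genes 1, the noradrenaline enzyme gene Dbh, was called lower at 6 weeks (-0.70, edgeR adjusted P = 0.0473), as were 11.5% of all tested genes. The other 5 had positive log2 fold changes and were not called, among them Uchl1 with 0.60 (edgeR adjusted P = 0.229). The median of the 6 was 0.45. The part of these neuron markers in the level of Scn10a was not tested.

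Between 6 and 2 weeks post-IR, none of the 7 genes passed the edgeR test, which called 5.33% of all tested genes, 3.31% higher and 2.01% lower. At an unadjusted P under 0.05 there were 3, namely Scn3b higher (log2 fold change 0.69, SE 0.237, adjusted P = 0.0976), Fgf13 lower (-0.37, SE 0.116, adjusted P = 0.069) and Scn10a lower (-0.70, SE 0.301, adjusted P = 0.184). DESeq2 called 1 gene, Fgf13 (log2 -0.36, adjusted P = 0.0417), and limma voom called 0, or 1 with sample quality weights. For Scn3b 4 of 6 mice at 6 weeks lay above the highest mouse at 2 weeks, and for Fgf13 5 of 6 lay below the lowest. Without replicate 4 of the 6-week group Scn3b was called (log2 0.82, adjusted P = 0.027), and Fgf13 was called without replicate 2 of that group (-0.44, adjusted P = 0.0395) or without control replicate 3 (-0.37, adjusted P = 0.0281).

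**Figure D4:**
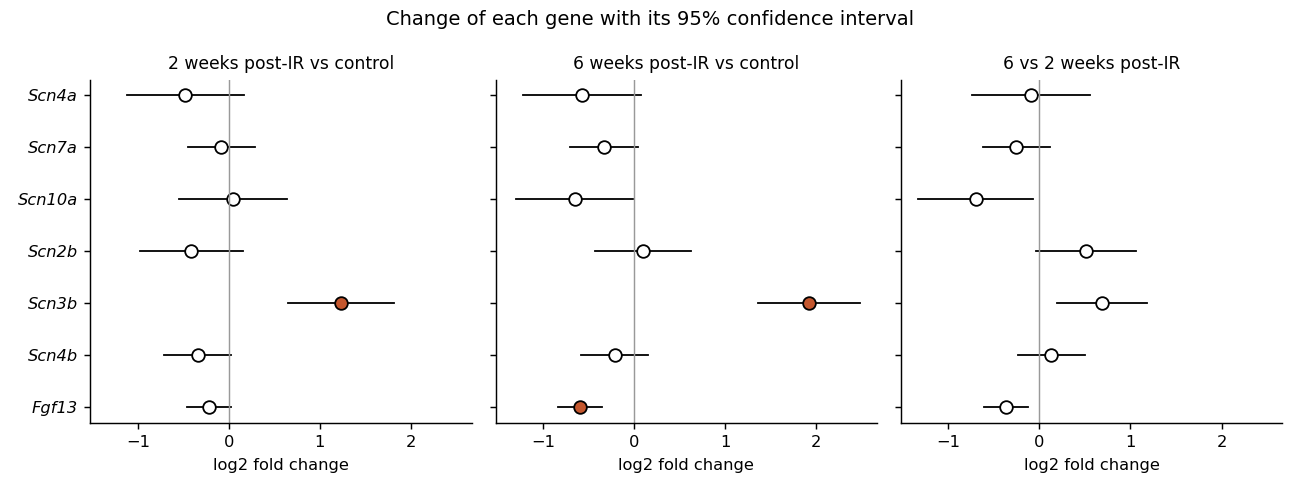
Log2 fold change of each gene with its 95% confidence interval in 3 comparisons, n = 6 mice per group. Filled points passed the edgeR test at an adjusted P under 0.05: Scn3b at 2 weeks (1.23) and 6 weeks (1.92) post-IR and Fgf13 at 6 weeks (-0.59).

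The deposited tables also carry a measure of which transcripts of a gene were used. The ratio of a gene's estimated count to its TPM follows the effective length of its transcripts within a mouse, so a switch between short and long transcripts would move it. With limma on the log2 ratio over 13893 genes, 0 of the 7 genes were called in any comparison, and at an unadjusted P under 0.05 only Scn2b differed, at 2 weeks against control and at 6 against 2 weeks. The share of all genes called was 0.0072% at 2 weeks, 0.0216% at 6 weeks and 0.0072% between the irradiated groups. The differences of Scn2b were 0.15 log2 units at 2 weeks (SE 0.0317, adjusted P = 0.336) and -0.18 between 6 and 2 weeks (adjusted P = 0.182). For Scn3b the difference was -0.055 at 6 weeks (SE 0.0965) and for Fgf13 it was -0.024 (SE 0.037), against log2 fold changes of 1.92 and -0.59 in CPM.

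Other genes of the family were mostly faint. Of 9 listed alpha subunit and homologous factor genes, 6 passed the filter, and Scn1a, Scn9a and Scn11a did not. At 6 weeks post-IR 2 of 6 were called, where 25% of all tested genes were. Scn8a, an alpha subunit gene of brain that is also present in cardiac muscle, had a mean of 0.156 CPM in control and 0.562 CPM at 6 weeks (log2 fold change 1.78, SE 0.411, edgeR adjusted P = 0.00289). The groups did not overlap, as for 5.8% of all tested genes, and the control mean was below the floor of 3 counts (0.194 to 0.26 CPM per mouse), so the size of the fold is uncertain. On the log2(TPM + 1) scale, which understates changes of low genes, it was 0.16 (limma adjusted P = 0.0487). Fgf14, a homologous factor like Fgf13, fell by 0.63 log2 units (SE 0.226, adjusted P = 0.0476), a call lost under 8 of 16 alternatives and without any of 13 of the 18 mice. Fgf12, the homologous factor dominant in human ventricle, had means of 1.47, 1.84 and 0.676 CPM in the 3 groups and varied too widely to be called (log2 -1.19 at 6 weeks, SE 0.841, adjusted P = 0.332). Scn3a had a log2 fold change of -0.38 at 6 weeks (adjusted P = 0.201) and Fgf11 of 0.022 (adjusted P = 0.961).

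Among genes of proteins that anchor and regulate sodium channels, all 20 listed were tested. At 2 weeks post-IR 2 of 20 were called, both lower, where 5.02% of all tested genes were called and 1.93% were lower: Dmd, the gene of dystrophin, which holds channels at the lateral membrane (log2 fold change -0.30, SE 0.0741, edgeR adjusted P = 0.0234), and Rangrf, whose product promotes channel trafficking (-0.35, SE 0.0988, adjusted P = 0.048). At 6 weeks 12 of 20 were called, 3 higher and 9 lower, against 25% of all genes, and the median log2 fold change of the 20 was -0.23 beside -0.019 for all tested genes. The direction of these counts depends on the scaling. For the 20 partners and 6 tested relatives together, 4 were higher and 10 lower at 6 weeks. With library size 5 were higher and 2 lower, and on the log2(TPM + 1) scale 9 were higher and 1 lower. With cardiomyocyte marker scaling 10 were higher and 0 lower. Of the 15054 tested genes, these alternatives called 5820, 7472 and 8281 in either direction, against 3760 in the main fit. On these scales the list was thus not called more often than tested genes as a whole. At 2 weeks the Rangrf call was lost in 7 of 16 alternatives and without any of 14 of the 18 mice, and Dmd was not called without control replicate 3 (-0.28, edgeR adjusted P = 0.0568). The 2-week call of Dmd was also lost with library size (-0.16, edgeR adjusted P = 0.253) and with cardiomyocyte marker scaling (-0.12, edgeR adjusted P = 0.57). Its sign turned on the 2 TPM scales (0.055 and 0.057).

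Mean Dmd went from 387 CPM in control to 313 CPM at 2 weeks and 269.5 CPM at 6 weeks post-IR (log2 -0.52, SE 0.0743, edgeR adjusted P = 6.47e-05), and at both times the irradiated mice all lay under the control range, as did 1.28% of all tested genes at 2 weeks and 3.43% at 6 weeks. Ank2, the gene of ankyrin-B, a membrane adaptor, went from 332 to 252 CPM at 6 weeks (-0.40, SE 0.0642, adjusted P = 0.000199). On the TPM scale the 6-week values of Dmd and Ank2 turned positive, at 0.034 to 0.040. Rangrf fell from 36.9 to 25.5 CPM (-0.53, SE 0.0993, edgeR adjusted P = 0.000711). On the 2 TPM scales Rangrf stayed negative but lost its call (-0.11 and -0.12, limma adjusted P = 0.437 and 0.436). With library size the 6-week call of Ank2 was lost (-0.14, edgeR adjusted P = 0.0715). Dmd, Ank2 and Rangrf had log2 fold changes within the range of the cardiomyocyte markers (-0.61 to -0.38). Scaled to those markers they were -0.068, 0.051 and -0.077, with no call among them by edgeR. That scaling raised the median of all tested genes to 0.42, which works against a fall in any gene.

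The 3 partner genes that rose at 6 weeks were Sntb2, Sntb1 and Ywhah. Sntb2, a syntrophin gene of the dystrophin complex, went from 30.9 to 45.7 CPM (log2 0.57, SE 0.108, edgeR adjusted P = 0.000846). Sntb1, its close relative, had a log2 fold change of 0.37 (adjusted P = 0.0315) and Ywhah, which encodes a 14-3-3 adaptor, of 0.35 (adjusted P = 0.00689). These last 2, named after their values were seen, overlapped the control mice, as Sntb2 did. Between 6 and 2 weeks 4 of 20 partner genes were called, all lower, beside 5.33% of all tested genes (2.01% lower), among them Ank2 (-0.26, SE 0.0641, adjusted P = 0.0283). For partners and relatives together the calls were 1 higher and 0 lower with library size, and 3 higher and 0 lower with cardiomyocyte marker scaling. Of the 15054 tested genes, 1202 and 2726 were called with these 2 scalings.

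**Figure D5:**
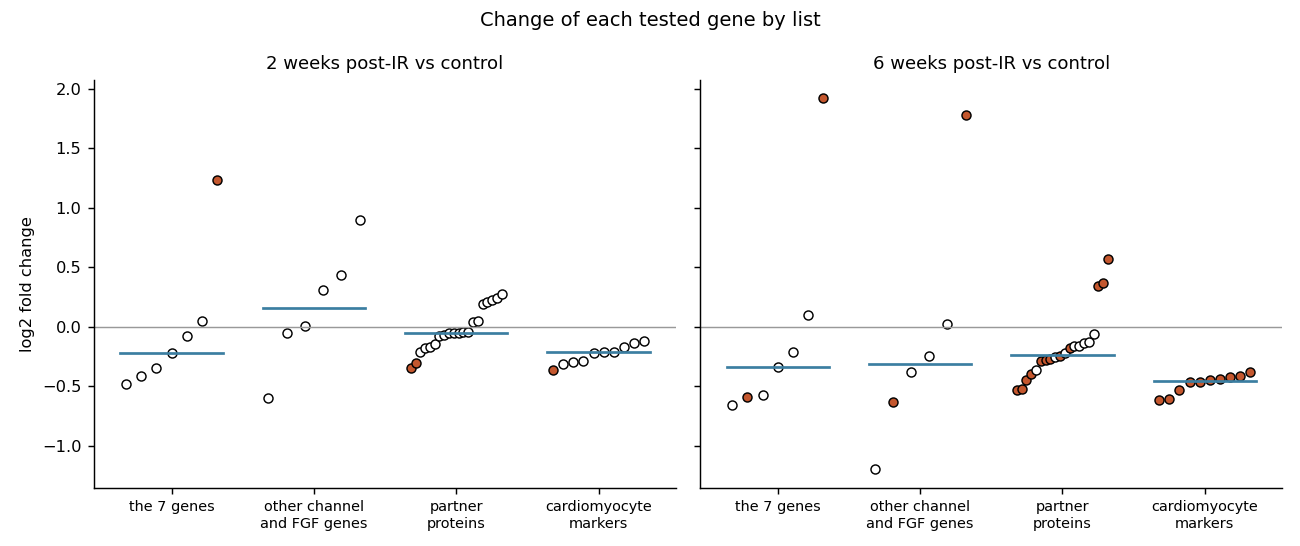
Log2 fold change of each tested gene at 2 and 6 weeks post-IR in 4 lists, 1 point per gene, filled where the edgeR adjusted P was under 0.05, blue line at the list median. At 6 weeks the 10 cardiomyocyte markers lie between -0.61 and -0.38, 9 of 20 partner genes are called lower, and Scn3b (1.92) and Scn8a (1.78) stand highest. Scn8a passed the filter mainly through irradiated mice. Values are scaled by TMM, and those of Dmd and Ank2 turn positive on the TPM scale.

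Markers of other cells moved with the groups to different degrees. At 6 weeks post-IR 13.5% of all tested genes were called higher and 11.5% lower. Of 6 macrophage markers 5 were called higher at 6 weeks post-IR (median log2 fold change of the 6, 1.08), and their sum went from 125 to 395 CPM in control to 346 to 466 CPM. C1qa, a complement gene of resident macrophages, went from 13.7 to 32.5 CPM (log2 1.24, SE 0.144, edgeR adjusted P = 9.92e-06) and the lysozyme gene Lyz2 from 115 to 217 CPM (0.91, SE 0.216, adjusted P = 0.00432). Of 6 endothelial markers 2 were called higher and 1 lower, with sums of 1084 to 1316 CPM in control and 1256 to 1638 CPM at 6 weeks, and the most abundant by TPM, Fabp4 and Egfl7, had log2 fold changes of -0.21 (edgeR adjusted P = 0.0995) and 0.17 (adjusted P = 0.191). Fibroblast markers summed to 2466 to 4518 CPM in control and 1990 to 2972 CPM at 6 weeks, with 2 of 8 called lower, among them the actin regulator gene Gsn (-0.84, SE 0.208, adjusted P = 0.00598), and the collagen-binding proteoglycan gene Dcn had -0.33 (adjusted P = 0.131). Schwann cell markers summed to 14.1 to 22.1 CPM in control and 13.0 to 21.5 CPM at 6 weeks, with 1 of 8 tested genes called lower, the potassium channel gene Kcna1 (-0.55, adjusted P = 0.0324). That count is near the share of all tested genes called lower. The most abundant by TPM, the myelin gene Mbp and Cdh19, had 0.36 (edgeR adjusted P = 0.253) and -0.58 (adjusted P = 0.177). The part of these cells in the rise of Scn3b was not tested.

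Ventricular conduction markers summed to 110 to 139 CPM in control and 90.6 to 130 CPM at 6 weeks, with 2 of 9 called lower, the adhesion molecule gene Cntn2 (log2 fold change -0.66, edgeR adjusted P = 0.0377) and the pacemaker channel gene Hcn4 (-0.65, adjusted P = 0.00905). Of all tested genes 11.5% were called lower at 6 weeks. The 2 of these 9 genes with the highest mean TPM were Kcne1 and Etv1, with log2 fold changes of 0.45 (adjusted P = 0.42) and -0.28 (adjusted P = 0.136). Atrial markers summed to 73.1 to 1583 CPM over the 18 mice with wide overlap between groups. The 2 with the highest mean TPM, Nppa and Myl7, had log2 fold changes at 6 weeks of -0.52 (SE 0.522) and -0.81 (SE 1.14), and neither was called. Smooth muscle and pericyte markers summed to 574 to 699 CPM in control and 553 to 711 CPM at 6 weeks, with log2 fold changes of 0.0042 for Acta2 (edgeR adjusted P = 0.992) and 0.042 for Rgs5 (adjusted P = 0.828).

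Genes with the most similar pattern were found by the root mean square difference of centred log2 CPM over the 18 mice, a description without a test. For Scn3b, whose own root mean square deviation was 0.867, the closest were Traf1 (0.345), a signalling adaptor of tumour necrosis factor receptors, and Nid2 (0.37), a basement membrane protein. For Fgf13 (own deviation 0.306) the closest were Rbfox1 (0.124), a splicing regulator of heart and brain, and Ldhd (0.125), a mitochondrial lactate dehydrogenase. Scn10a was closest to Cabcoco1 (0.375) and Corin (0.376), the cardiac protease that processes natriuretic peptide, against its own deviation of 0.575. Scn4a (own deviation 0.609) was closest to Def8 and Thrsp (both 0.388), and Scn7a (0.339) to Snap47 (0.209) and Ankrd45 (0.212). Scn2b (0.368) was closest to Map4k3 (0.248) and Lpcat1 (0.256), and Scn4b (0.339) to Wscd1 (0.223) and Rps29 (0.239).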

How the data were processed

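RNA from 18 mouse hearts was sequenced by the authors in 3 groups of 6. Per the labels and the methods of the study, libraries were made with a KAPA RNA HyperPrep kit, reads were demultiplexed with CASAVA 1.8, aligned with STAR to GRCm38, and quantified with Salmon 1.0. The deposited estimated counts are summed to genes, are not whole numbers and carry no normalization across mice. TPM values, also deposited, were computed by the authors from the same quantification and are scaled for length and depth within each mouse. Tables of count and TPM hold 30072 genes, of which 29301 were given a symbol from GENCODE M21 and 771 were not.

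Rounded counts were tested with edgeR 4.0.16 (R 4.3.3). A gene was kept where 6 or more mice had 0.23 CPM or more (15054 genes), TMM scaling was used, and a quasi-likelihood model was fitted to the 3 groups together. Tests were two-sided, the Benjamini-Hochberg adjustment of P ran over all genes tested in a comparison, and a gene was called at an adjusted P under 0.05. Transcript length ratios were tested with limma 3.58.1 in genes above 0 in every mouse, centred on the median ratio of each mouse, with a minimum of 10 counts as the alternative. Single values per mouse were compared with exact permutation tests, two-sided. The members, the lists of relatives, partners and cell markers, and the tests were chosen with earlier results of these data known. Genes named were the 7 genes and, by rule, up to 4 relatives and 4 partners with the smallest adjusted P at 6 weeks, the most abundant gene of each of these lists, the 2 most abundant of each marker list, and the 2 genes most like each of the 7. Sntb1, Ywhah, Cntn2, Hcn4, Kcna1, Chat, Myh2 and Myh4 were not covered by it and were picked with their values known. Genes of the sodium channel complex outside the 7 genes and the lists of relatives and partners are not analysed here.

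Alternatives were the scaling (library size, upper quartile, RLE, mitochondrially encoded genes removed), the test (DESeq2 1.42.0, limma voom with and without quality weights, the legacy edgeR model), the filter, log2(TPM + 1) and log2(TPM + 0.1), a replicate block, expression of Y-linked genes as a covariate, the compared groups alone, each mouse left out, and, added after the data were seen, scaling to the cardiomyocyte markers. A test used simulated data for 6 weeks against control (14927 genes). Of 200 genes changed by 1.5 log2 units, 199 were found, with 13 false calls. Smaller changes were not simulated, such as the log2 fold change of -0.57 for Scn4a at 6 weeks (SE 0.308). The simulated test therefore does not show how often changes of the size seen in uncalled sodium channel genes would be found. Total counts per mouse allowed a floor of 3 counts, or 0.194 to 0.26 CPM. Intervals of counts cover the spread between mice, and floors cover counting error only. Each mouse was treated as a separate replicate, and no 2 mice had identical counts.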

Additional observations from a re-analysis of the deposited data

Results flagged for a closer look

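Among 30 groups of 6 mice checked for a mouse far from the others, 2 had one, where chance gives about 1 in 20 groups. At 2 weeks post-IR, replicate 4 had 63.2 CPM of Scn4a, and the next highest mouse had 37.5 CPM. In control, replicate 6 had 4.66 CPM of Scn10a, and the next highest had 2.80 CPM. The change of Ank2 from control differed between the times after radiation, with a log2 fold change of -0.26 at 6 against 2 weeks post-IR (edgeR adjusted P = 0.0283). It was not called when any of 7 of the 18 mice was left out (adjusted P over all left-out mice 0.0155 to 0.0698). The call was also lost with the replicate block (-0.25, edgeR adjusted P = 0.0603), with library size (-0.15, adjusted P = 0.125), on the log2(TPM + 1) and log2(TPM + 0.1) scales (both -0.093, limma adjusted P = 0.498 and 0.507) and with cardiomyocyte marker scaling (-0.0012, edgeR adjusted P = 0.991). It held in the other 11 of 16 alternatives.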

How the results depend on the processing

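At 6 weeks post-IR Scn3b kept its call and direction in all 16 alternatives and without each mouse (log2 1.42 to 2.37, adjusted P at most 0.000421), and Fgf13 kept its direction in all 16 and its call in 13. The number of the 7 genes called at 2 weeks was 0 instead of 1 with limma voom and with quality weights, and at 6 weeks 1 instead of 2 with log2(TPM + 1), with log2(TPM + 0.1) (Fgf13 -0.16, limma adjusted P = 0.286) and with cardiomyocyte marker scaling. Between 6 and 2 weeks it was 1 instead of 0 with library size, DESeq2, quality weights, the 2 groups only and cardiomyocyte marker scaling. Leaving out each mouse gave 1, 2 to 3, and 0 to 1 called in these comparisons.

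For relatives and partners together, 2 of 26 were called at 2 weeks, and 1 with library size, with mitochondrially encoded genes removed, with no filter and with the replicate block, 7 with either TPM scale (all higher) and 0 with cardiomyocyte marker scaling. Of the 15054 tested genes, the log2(TPM + 1) and log2(TPM + 0.1) scales called 2813 and 3026 at 2 weeks. At 6 weeks 14 of 26 relatives and partners were called, 4 higher and 10 lower. With library size it was 7 (5 higher and 2 lower), where 5820 of all tested genes were called. With log2(TPM + 0.1) it was 9 (9 higher and 0 lower), where 7463 of all tested genes were called. Between 6 and 2 weeks 4 were called, all lower, and 1 with library size (higher), 3 with cardiomyocyte marker scaling (all higher), 0 with either TPM scale and 2 with the block (both lower). Leaving out each mouse gave 0 to 2, 11 to 14 and 2 to 6 called, the fewest at 2 weeks without control replicate 3. For transcript length it gave 0 to 1 of the 7 genes between 6 and 2 weeks, the latter without control replicate 5.

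Library size, the TPM scales and marker scaling moved the median gene. At 6 weeks the median log2 fold change of all tested genes was 0.24 with library size, 0.29 and 0.37 on the TPM scales and 0.42 with cardiomyocyte marker scaling. The sign turned as follows, in the order library size, log2(TPM + 1), log2(TPM + 0.1) and cardiomyocyte markers. Scn7a at 2 weeks became 0.065, 0.19, 0.21 and 0.074, Scn4b at 6 weeks 0.061, 0.14, 0.15 and 0.25, and Scn4a between 6 and 2 weeks 0.0025, 0.16, 0.18 and 0.14. On the TPM scales and with the markers Scn7a at 6 weeks became 0.073, 0.081 and 0.085 and Ank2 at 6 weeks 0.040, 0.040 and 0.051. On the TPM scales alone Fgf13 at 2 weeks became 0.098 and 0.10, Dmd 0.055 and 0.057 at 2 weeks and 0.034 and 0.035 at 6 weeks. With the markers alone Scn3a at 6 weeks became 0.051 and Scn7a between 6 and 2 weeks 0.012.

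Leaving out single mice turned the sign of genes with small differences: Scn7a (-0.16 to 0.065) and Scn10a (-0.083 to 0.25) at 2 weeks, Scn2b (-0.055 to 0.19) and Fgf11 (-0.10 to 0.14) at 6 weeks, and Scn4a (-0.33 to 0.16) and Scn4b (-0.0099 to 0.27) between 6 and 2 weeks.

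Mice with the same replicate number in different groups did not deviate together (18 correlations of -0.0828 to 0.106, 2 above 0.1, 5 of 18 mice best matched to their own number), so the numbers were not taken as pairs. With replicate number as a block, 586, 3549 and 542 genes were called in the 3 comparisons instead of 755, 3760 and 802, and the calls of the 7 genes did not change.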
